A study of Mus musculus with 6 samples.

Results

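The genes described here are 10 mouse genes of prostaglandin E2 (PGE2) synthesis, reception and breakdown: *Ptgs1*, *Ptgs2*, *Ptges*, *Ptges2*, *Ptges3*, *Ptger1*, *Ptger2*, *Ptger3*, *Ptger4* and *Hpgd*. They were taken by gene name from a table of read counts for 40166 genes. All 10 names were found once each. A gene was tested if its median count reached 5 among the vehicle or among the treated tumors. This held for 7 of the 10 genes and for 15355 genes in all, while *Ptger2*, *Ptger3* and *Hpgd* did not reach that minimum.

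RNA was sequenced in bulk from 6 subcutaneous tumors grown in C57BL/6 mice from YUMM3.3, 1 mouse melanoma cell line with mutant BRAF. Of these tumors, 3 came from mice given water by oral gavage (vehicle, 0 mg/kg, replicates 7, 8 and 9) and 3 from mice given Rigosertib (RGS), a small molecule RAS mimetic, at 300 mg/kg (replicates 10, 11 and 12). Gavage was given on 5 days a week, and tumors were collected at 17 days of treatment. By the study's methods, treatment began at a mean tumor volume of about 100 mm3 or on day 10 after the cells were injected. The study's methods give an age of 8 to 10 weeks for the mice when tumors were established, and the sex of these 6 mice is not given in the sources used here. All tumors derive from a single cell line, so they do not sample the range of melanoma genotypes. The labels number the tumors but do not say that each came from its own mouse, and the p-values therefore measure only the spread between these samples, which may be technical.

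Total counts were 22793087 to 32555494 in the vehicle tumors and 13837932 to 21617368 in the RGS tumors, so the shallowest vehicle library still exceeded the deepest RGS library. Levels are given as CPM, the count of a gene relative to the total of its library, which was scaled by edgeR's TMM factor, and an upper limit of 3 counts corresponded to 0.0856 to 0.226 CPM per library, which covers counting error only. Mitochondrial transcripts made up 2.13 to 3.20% of counts with vehicle and 5.6 to 8.22% with RGS. The labelled tissue is melanoma tumor, yet 4 of 8 melanocyte lineage markers (*Mlana*, *Dct*, *Tyr* and *Kit*) had no count in any tumor, and the list summed to 4.94 to 7.67 CPM with vehicle and 4.53 to 10.5 CPM with RGS. Of 4 leukocyte markers, *Laptm5* and *Cd53* were higher with RGS and the list summed to 187 to 248 CPM with vehicle and 919 to 1028 CPM with RGS, while *Ptprc*, which encodes CD45, was at 0 in all 6 tumors. The summed levels were 65.1 to 70.9 and 83.0 to 106 CPM for 7 macrophage markers (*Adgre1* at 0 in all), 4.49 to 7.39 and 39.2 to 56.5 CPM for 8 keratinocyte markers (*Krt1*, *Krt6a* and *Trp63* at 0), and 215 to 282 and 152 to 165 CPM for 6 fibroblast markers (*Lum* at 0). For 6 endothelial markers they were 2.49 to 4.10 and 6.55 to 13.8 CPM, and for 4 platelet markers (*Pf4* at 0) they were 8.30 to 11 and 4.40 to 12.1 CPM. These sums rest on few genes. *Cd68* and *Cd14* made up nearly all of the macrophage sum, and *Csf1r*, *C1qa*, *C1qb* and *Mrc1* had at most 7 counts in any tumor. The keratinocyte sum came mainly from *Sfn* and, with RGS, *Ivl*, and the endothelial sum from *Cdh5* and *Vwf*. Among fibroblast markers *Pdgfra*, *Pdgfrb* and *Col3a1* were lower with RGS, while *Dcn* was higher. In bulk tumor RNA, fewer cells of a type and less RNA per cell cannot be told apart. The share of these cells and of depth in the results that follow was not tested, apart from the thinning to equal depth given with them.

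Prostaglandins are made when a phospholipase A2 frees arachidonic acid from membranes and a cyclooxygenase turns it into prostaglandin H2. Terminal synthases then convert prostaglandin H2 into PGE2 or into one of the other prostanoids, and PGE2 acts on 4 G-protein coupled receptors, EP1 to EP4. In tumors, PGE2 is best known as a product that dampens cytotoxic lymphocytes and dendritic cells, and EP2 and EP4 raise cyclic AMP in the cells that carry them. The enzyme 15-hydroxyprostaglandin dehydrogenase ends the signal by oxidizing PGE2.

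With RGS, 2 of the 7 tested genes rose: the cyclooxygenase gene *Ptgs1*, by 4.57-fold, and the PGE2 synthase gene *Ptges*, by 2.81-fold. None fell, and *Ptgs2*, *Ptges2*, *Ptges3*, *Ptger1* and *Ptger4* did not pass the test. A gene passed where edgeR's quasi-likelihood test gave an adjusted p (Benjamini-Hochberg over all 15355 genes) under 0.05. Over all tested genes 16.3% rose and 16.5% fell, beside 28.6% of the 7 tested genes that rose, a share that rests on 2 genes. The median log2 fold change was 0.26 over the 7 genes and -0.05 over all tested genes. In 3 of the 7 genes (*Ptgs1*, *Ptgs2* and *Ptges*) every RGS tumor lay above every vehicle tumor, a pattern held by 21.7% of all tested genes, and in 0 of the 7 did every RGS tumor lie below, against 24.0% of all tested genes.

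**Figure D1:**
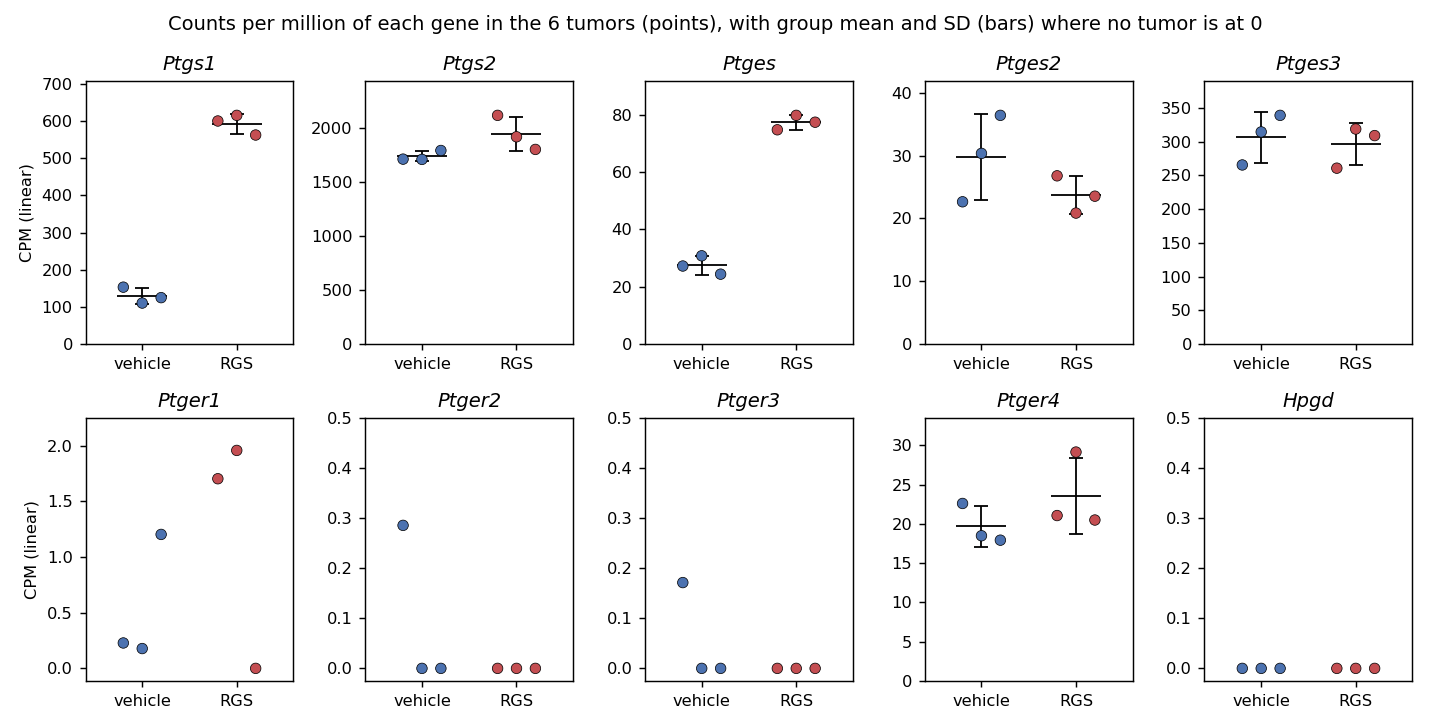
Level of each of the 10 genes in CPM (linear axis, a separate scale per gene) in the 3 vehicle tumors (blue) and the 3 RGS tumors (red). Horizontal lines are group means and error bars are SDs, drawn for genes with no tumor at 0. The groups stand far apart for Ptgs1 and Ptges, lie close together for Ptgs2, overlap for Ptges2, Ptges3 and Ptger4, and Hpgd is at 0 throughout.

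The starts of *Ptgs1*, *Ptgs2* and *Ptges* are shown because the genes that rose with RGS are *Ptgs1* and *Ptges*, and *Ptgs2* is the most abundant of the set and was not called. RefSeq promoter sequences on GRCm38.p6 were matched by symbol for 9 of the 10 genes. Each line holds the 250 bases before the RefSeq start on the gene's own strand, which are chr2:36230176-36230425 (plus strand) for *Ptgs1*, chr1:150099781-150100030 (plus strand) for *Ptgs2* and chr2:30903298-30903547 (minus strand) for *Ptges*, and capitals mark GC boxes.
Ptgs1: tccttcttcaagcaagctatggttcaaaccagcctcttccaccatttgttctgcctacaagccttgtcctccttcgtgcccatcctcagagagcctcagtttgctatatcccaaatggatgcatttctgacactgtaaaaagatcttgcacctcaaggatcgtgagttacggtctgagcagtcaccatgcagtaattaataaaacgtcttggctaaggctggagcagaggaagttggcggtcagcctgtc
Ptgs2: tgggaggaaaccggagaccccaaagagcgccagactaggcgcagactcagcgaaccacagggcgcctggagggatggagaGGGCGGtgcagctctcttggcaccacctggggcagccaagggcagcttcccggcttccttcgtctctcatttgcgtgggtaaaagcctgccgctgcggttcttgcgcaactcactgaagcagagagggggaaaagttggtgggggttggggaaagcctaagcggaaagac
Ptges: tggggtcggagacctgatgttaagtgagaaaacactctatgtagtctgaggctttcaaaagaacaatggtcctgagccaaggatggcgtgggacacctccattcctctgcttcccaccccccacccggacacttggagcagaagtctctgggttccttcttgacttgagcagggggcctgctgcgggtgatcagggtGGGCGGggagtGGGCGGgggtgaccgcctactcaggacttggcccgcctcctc

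Both strands were searched for a TATA box (TATAAA), a cAMP response element core (TGACG), a GC box (GGGCGG), an AP-1 site (TGANTCA) and an E box (CACGTG), none of which contains another. The *Ptgs1* sequence held 0 matches. *Ptgs2* held 1 GC box, 170 to 165 bases before the start, and *Ptges* held 2, at 53 to 48 and 42 to 37 bases before the start. Of all 32851 promoters in the table, 32.74% held a GC box in the same window, 12.37% the TATA letters, 17.77% the cAMP core, 6.75% the AP-1 site and 6.02% the E box. The GC content was 48.0% for *Ptgs1*, 61.6% for *Ptgs2* and 59.6% for *Ptges*, beside a median of 52.4% over all promoters. The observed over expected CpG ratio was 0.35, 0.56 and 0.36 in the same order, with a median of 0.37. These letters describe the windows and nothing beyond them.

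*Ptgs1* encodes cyclooxygenase-1, the form usually described as constitutive, and lies on chromosome 2 at 36230426 to 36252272 (GRCm38, gene ENSMUSG00000047250.13). Its level was 153, 111 and 125 CPM in vehicle replicates 7, 8 and 9 and 600.2, 615 and 562 CPM in RGS replicates 10, 11 and 12. The lowest RGS tumor therefore lay far above the highest vehicle tumor, although the RGS libraries were the shallower ones, and the raw counts were also higher (2914 to 5377 with vehicle and 8172 to 12684 with RGS). The mean rose from 130 ± 21.7 to 593 ± 27.2 CPM (SD, n = 3), a log2 fold change of 2.19 (SE 0.16, 95% confidence interval 1.85 to 2.53, edgeR adjusted p = 1.13e-08). The coefficient of variation among tumors was 16.7% with vehicle and 4.59% with RGS. By size of increase *Ptgs1* ranked 831st from the top of the 15355 genes. After the counts of each library were thinned at random to the smallest total, the log2 fold change was 2.18. The leukocyte marker *Laptm5* rose alongside it, from 176 ± 36.8 to 900.2 ± 60.3 CPM, a log2 fold change of 2.35 (SE 0.17, edgeR adjusted p = 9e-09). *Cd53* rose from 31.1 ± 2.61 to 82.3 ± 6.29 CPM, while of the other leukocyte markers *Ptprc* was at 0 in all tumors and *Coro1a* at 0 to 1.51 CPM. Platelets are a known source of cyclooxygenase-1, and of 4 platelet markers *Itga2b* was at 7.73 to 11 CPM with vehicle and 4.26 to 12.1 CPM with RGS, *Ppbp* and *Gp1ba* were at 0 to 0.816 CPM and *Pf4* was at 0. The part of such cells in the *Ptgs1* level was not tested.

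*Ptgs2* encodes cyclooxygenase-2, the inducible form that growth factors and inflammatory signals switch on (chromosome 1, 150100031 to 150108227, ENSMUSG00000032487.8). It was the most abundant of the 10 genes, with 1711, 1708 and 1791 CPM in the vehicle tumors and 2115, 1917 and 1800 CPM in the RGS tumors. The groups did not overlap, but the highest vehicle tumor and the lowest RGS tumor were almost level. The means were 1737 ± 46.8 and 1944 ± 159 CPM (SD, n = 3), and the log2 fold change of 0.16 (SE 0.14, 95% confidence interval -0.14 to 0.46) did not pass the test (edgeR adjusted p = 0.413). The interval leaves room for a change of either sign and lies below the whole interval of *Ptgs1*.

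Levels of different genes were compared per kilobase of gene length, on the CPM scale. Per kilobase, *Ptgs2* stood at 379 and *Ptgs1* at 33.4 with vehicle, and at 425 and 153 with RGS. Among the 15355 genes ordered by this level, *Ptgs2* was 98th with vehicle and 82nd with RGS, while *Ptgs1* moved from 1473rd to 293rd. The ratio of *Ptgs2* to *Ptgs1* was 9.46, 13.1 and 12.1 in the vehicle tumors and 2.99, 2.64 and 2.71 in the RGS tumors. *Ptgs2* thus stayed the major cyclooxygenase transcript in all 6 tumors, with a smaller lead in every RGS tumor. The *Ptgs1* share of the summed cyclooxygenase level was 9.56, 7.10 and 7.62% with vehicle and 25.1, 27.5 and 26.9% with RGS, a difference of 18.4 percentage points between means. The sum of both genes was 413 ± 10.9 per kilobase with vehicle and 577 ± 39.2 with RGS, 1.40 times as high. These ratios are descriptions, since an exact permutation test of 3 tumors against 3 cannot go below p = 0.1.

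**Figure D2:**
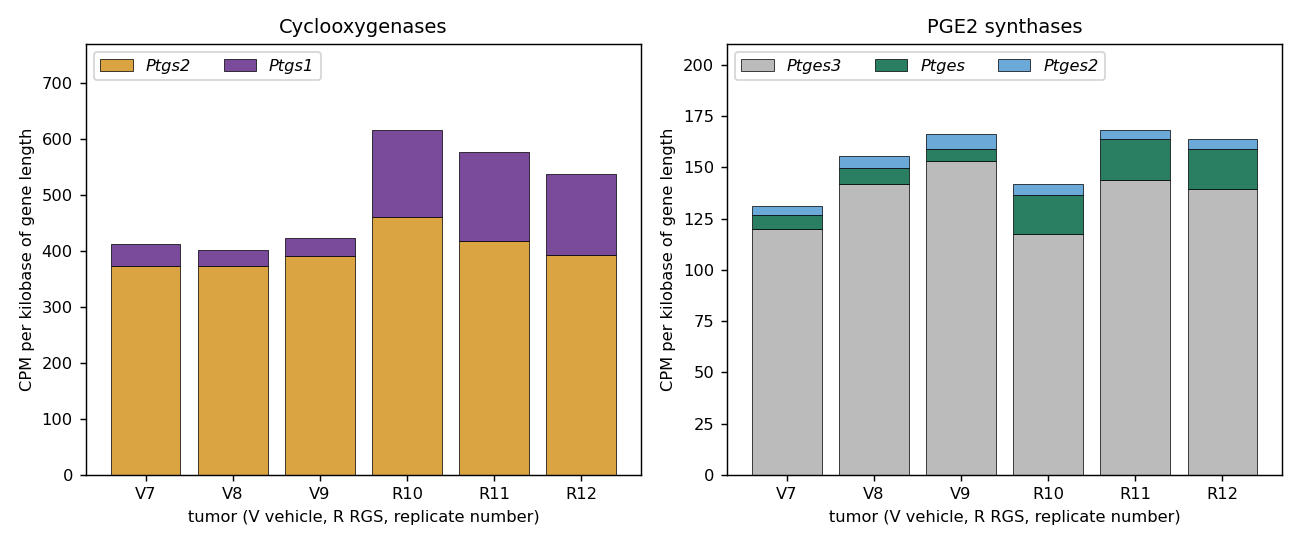
Levels per kilobase of gene length (CPM per kilobase, linear axis from 0) in each tumor, stacked for the cyclooxygenase genes (left) and the PGE2 synthase genes (right). V marks vehicle, R marks RGS and the number is the replicate. Ptgs1 makes up 7.10 to 9.56% of the left bars with vehicle and 25.1 to 27.5% with RGS, and Ptges 3.73 to 5.29% and 12 to 13.4% of the right bars.

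Among the PGE2 synthase genes, *Ptges* encodes the membrane-bound enzyme mPGES-1, which is usually induced together with cyclooxygenase-2 (chromosome 2, 30889471 to 30929863, ENSMUSG00000050737.13). Its level was 27.2, 30.8 and 24.4 CPM in the vehicle tumors and 74.7, 79.7 and 77.4 CPM in the RGS tumors. Every RGS tumor was above every vehicle tumor by a wide margin, and the RGS tumors differed little among themselves (coefficient of variation 3.25%, and 11.7% with vehicle). The mean rose from 27.5 ± 3.21 to 77.3 ± 2.51 CPM (SD, n = 3), a log2 fold change of 1.49 (SE 0.18, 95% confidence interval 1.12 to 1.86, edgeR adjusted p = 3.51e-06), and this increase ranked 1354th from the top of the 15355 genes. Its log2 fold change was also 1.49 at equal depth. The RefSeq start used for the promoter above lies inside the span that the count table gives for the gene.

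*Ptges2* encodes a second membrane-associated synthase, mPGES-2 (chromosome 2, 32395896 to 32405772, ENSMUSG00000026820.5). It was at 22.7, 30.3 and 36.4 CPM with vehicle and at 26.8, 20.9 and 23.5 CPM with RGS. The groups overlapped, the vehicle tumors spread the most of the synthase genes (coefficient of variation 23.1%), and the log2 fold change of -0.33 (SE 0.22, 95% confidence interval -0.80 to 0.14, edgeR adjusted p = 0.286) did not pass the test.

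*Ptges3* encodes the cytosolic synthase cPGES, better known as p23, a co-chaperone of Hsp90 (chromosome 10, 128058954 to 128077272, ENSMUSG00000071072.12). It was at 265, 314 and 339 CPM with vehicle and at 261, 319 and 309 CPM with RGS. These groups overlapped almost fully, and the log2 fold change was -0.05 (SE 0.16, 95% confidence interval -0.37 to 0.28, edgeR adjusted p = 0.840). A processed copy, *Ptges3-ps*, held 781, 790 and 871 counts with vehicle and 468, 275 and 334 with RGS, and reads may have been split between the copy and the gene. Counted together they gave a log2 fold change of -0.08 (edgeR adjusted p = 0.731, and 0.380 to 0.973 over all 16 alternatives for *Ptges3*).

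Per kilobase, *Ptges3* led the synthase genes with 138 in vehicle and 134 in RGS tumors, and *Ptges* and *Ptges2* stood far below it. With vehicle, *Ptges* at 6.99 ± 0.816 and *Ptges2* at 5.89 ± 1.36 per kilobase had overlapping ranges over the tumors (6.21 to 7.84 and 4.48 to 7.20). With RGS they separated, at 19.7 ± 0.639 and 4.69 ± 0.586. The ratio of *Ptges* to *Ptges2* was 1.55, 1.31 and 0.863 in the vehicle tumors and 3.59, 4.92 and 4.23 in the RGS tumors. Of the summed synthase level, *Ptges* held 5.29, 5.04 and 3.73% with vehicle and 13.4, 12.1 and 12% with RGS.

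Of the 4 genes for PGE2 receptors, *Ptger4* was the one with substantial counts. It encodes EP4, which couples to Gs and raises cyclic AMP (chromosome 15, 5206661 to 5244187, ENSMUSG00000039942.15). The level was 22.6, 18.5 and 17.9 CPM with vehicle and 21.1, 29.1 and 20.5 CPM with RGS. RGS replicate 11 was the highest of the 6 tumors, and the other two RGS tumors lay within the vehicle range. The log2 fold change was 0.26 (SE 0.23, 95% confidence interval -0.23 to 0.74, edgeR adjusted p = 0.428). Per kilobase it made up 96.4, 98.8 and 92.4% of the summed receptor level with vehicle and 91.0, 92.4 and 100% with RGS. Of its exonic bases, 83.5% overlap no other gene, and the rest share their position with a gene on the opposite strand. There, the span of *Ptger4* overlaps *Ttc33*, with a log2 fold change of -0.18 (edgeR adjusted p = 0.508), and the pseudogene *Gm15937*, with 0 counts in all tumors. Which of them covers the shared exonic bases was not determined. Whether the counting used strand is not given in the sources used here.

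*Ptger1* encodes EP1, a receptor linked to calcium release (chromosome 8, 83666678 to 83672753, ENSMUSG00000019464.6). Its counts were 8, 5 and 28 with vehicle and 36, 26 and 0 with RGS. RGS replicate 12 was thus the lowest and RGS replicate 11, at 1.96 CPM, the highest. The log2 fold change of 1.19 had a 95% confidence interval of -1.64 to 4.02 (edgeR adjusted p = 0.539), so no difference was detectable at this depth. The values are uncertain for another reason: 29.02% of its exonic bases are free of other genes. The log2 fold change of *Ptger1* was 2.55 without vehicle replicate 9 and 1.75 without RGS replicate 12, and over all 15 alternatives it ranged from 0.40 to 2.55 (edgeR, DESeq2 or limma adjusted p between 0.290 and 0.849).

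*Ptger2*, the gene of the other cyclic AMP-raising receptor EP2 (chromosome 14, 44988195 to 45003820, ENSMUSG00000037759.6), had 10 counts in vehicle replicate 7 and 0 in the other 5 tumors. *Ptger3*, for the Gi-coupled receptor EP3 (chromosome 3, 157566892 to 157645888, ENSMUSG00000040016.16), had 6 counts in the same tumor and 0 elsewhere. Neither reached the minimum for a test, and no difference between the groups was detectable at this depth.

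*Hpgd*, the gene of 15-hydroxyprostaglandin dehydrogenase (chromosome 8, 56294585 to 56321043, ENSMUSG00000031613.9), had 0 counts in all 6 tumors, which allows a level of up to 0.0347 CPM over the vehicle group and 0.0591 CPM over the RGS group. Its exons overlap no other gene over 100% of their length. This limit holds only if reads of the gene could be counted. *Ptprc* was also at 0 in all tumors, although *Laptm5* of the same marker list reached a mean of 900.2 CPM, and whether a 0 in this table can mark a gene that was not counted was not tested.

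**Figure D3:**
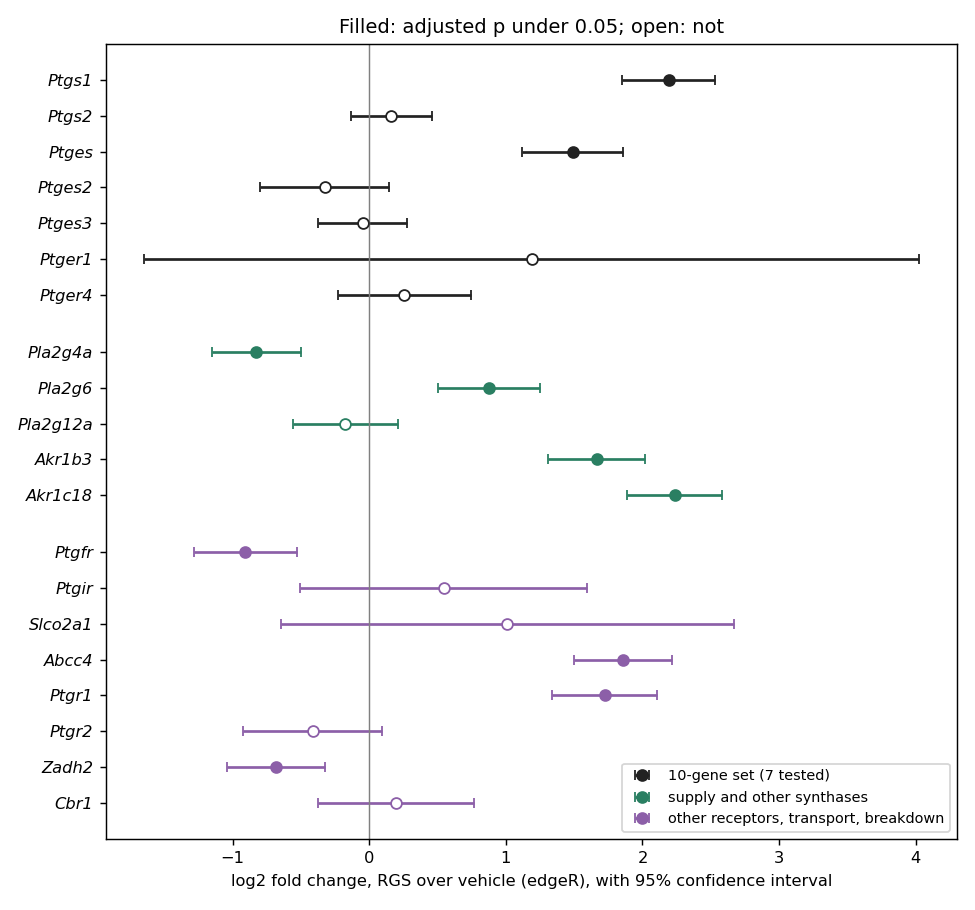
Log2 fold change of RGS over vehicle (edgeR, horizontal axis) with its 95% confidence interval for the 7 tested genes of the set (black) and for the tested genes with a mean of at least 1 CPM in the lists of supply and other synthases (green) and of other receptors, transport and breakdown (purple). Filled points have an adjusted p under 0.05. Ptgs1 at 2.19 and Ptges at 1.49 are filled among the black points, and Pla2g4a, Ptgfr and Zadh2 are filled below 0.

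The genes around the set moved in both directions. Of 142 gene names in 8 lists of the wider pathway, 108 genes were tested, 32 rose and 20 fell. Over all 15355 tested genes 16.3% rose and 16.5% fell, and the counts of each list below are to be read beside these shares. Scaled by library size only, without TMM factors, the lists gave 23 increases and 24 decreases, and all genes gave 1870 and 3152 in place of 2503 and 2533.

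Supply of arachidonic acid and conversion to other prostanoids were covered by a list of 22 gene names, of which 21 were found. Of these genes, 11 were tested, 4 rose and 2 fell (median log2 fold change -0.13). *Pla2g4a*, for the cytosolic phospholipase A2 that feeds the cyclooxygenases, was at 423, 552 and 546 CPM with vehicle and at 269, 289 and 299 CPM with RGS, all RGS tumors lying below all vehicle tumors. Its mean fell from 507 ± 72.7 to 286 ± 15.3 CPM (log2 fold change -0.83, SE 0.15, edgeR adjusted p = 4.28e-04). *Pla2g6*, for a calcium-independent phospholipase A2, went the other way and rose from 36.8 ± 5.06 to 67.6 ± 6.67 CPM (log2 fold change 0.88, edgeR adjusted p = 9.63e-04). The genes of both aldo-keto reductases in the list rose: *Akr1b3*, whose product can form prostaglandin F2 alpha, from 192 ± 34.8 to 608 ± 68.8 CPM (log2 fold change 1.66, edgeR adjusted p = 6.14e-07), and *Akr1c18*, a 20-alpha-hydroxysteroid dehydrogenase with a similar activity, from 185 ± 24.3 to 869 ± 117 CPM (log2 fold change 2.23, edgeR adjusted p = 1.13e-08). *Akr1c18* belongs to a family of closely related neighbors, between which reads may be split.

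Genes of the remaining terminal synthases were near the limit of detection. *Ptgds* and *Ptgis* (prostaglandin D2 and prostacyclin synthases) had 2 to 23 and 0 to 27 counts per tumor, and *Tbxas1* (thromboxane synthase) had 0 to 4. *Hpgds*, the hematopoietic prostaglandin D2 synthase gene, had 0 counts in all vehicle tumors and 11, 0 and 31 in the RGS tumors. Ratios to a limit, here and below, divide the higher group mean by 3 counts in the shallowest library of the other group. They take that mean as exact and leave out the spread between tumors, so they are not lower bounds of the change. *Hpgds* had an RGS mean 6.25 times this limit, and an edgeR confidence interval that began at 2.51 on the log2 scale. It was called (edgeR adjusted p = 0.0197), but the groups overlapped at 0, and the call was lost without vehicle replicate 7, 8 or 9 or RGS replicate 10 (adjusted p between 0.0545 and 0.0900) and without RGS replicate 12 (0.177, the highest of all 14 alternatives, whose lowest was 0.00657). *Pla2g4b* had 19, 20 and 1 counts with vehicle and 0 in all RGS tumors (edgeR adjusted p = 0.0462). Its vehicle mean was 1.91 times the limit, and the edgeR confidence interval of its log2 fold change ended at -1.41. Its naming followed a look at its values, and its call was lost in 11 of 14 alternatives. These were each of the 6 tumors left out (adjusted p between 0.0745 and 0.244), and DESeq2, limma voom, no filter on low counts, the robust fit and equal depth (0.0505 to 0.108).

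Among 11 genes for other prostanoid receptors, transport and breakdown, 10 were tested, 3 rose and 3 fell (median log2 fold change 0.37). *Abcc4*, for the efflux transporter MRP4 that exports PGE2, was at 91.2, 77.1 and 63.8 CPM with vehicle and at 309.9, 289 and 243 CPM with RGS, with no overlap. It rose by 1.86 on the log2 scale (SE 0.17, edgeR adjusted p = 1.93e-07). *Slco2a1*, for the transporter that takes prostaglandins up, was at 1.31 ± 0.915 and 2.64 ± 0.561 CPM and did not pass the test (log2 fold change 1.01, edgeR adjusted p = 0.354). *Ptgr1* encodes a reductase that inactivates prostaglandins after their first oxidation and also acts on leukotriene B4. It rose from 148 ± 34.2 to 489.8 ± 70.7 CPM (log2 fold change 1.72, edgeR adjusted p = 1.08e-06). *Zadh2*, also called Ptgr3, fell from 102 ± 8.90 to 63.4 ± 10.9 CPM (log2 fold change -0.68, edgeR adjusted p = 0.00487).

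The prostaglandin F receptor gene *Ptgfr* was at 105, 109.7 and 104 CPM with vehicle and at 72.3, 48.3 and 49.1 CPM with RGS. It fell by 0.91 on the log2 scale (SE 0.18, edgeR adjusted p = 7.33e-04). *Ptgir*, for the prostacyclin receptor, was at 3.57 ± 1.42 and 5.19 ± 1.88 CPM (edgeR adjusted p = 0.437), and *Ptgdr* was at 0 in all tumors. *Tbxa2r* and *Ptgdr2*, named after their values were seen, had low counts. *Tbxa2r*, for the thromboxane receptor, had 3, 0 and 0 counts with vehicle and 39, 23 and 7 with RGS (edgeR adjusted p = 0.0196). Its RGS mean was 10.4 times the limit, and the edgeR confidence interval of its log2 fold change began at 1.78. Its call was lost without vehicle replicate 8 (0.103) or 9, or RGS replicate 10 or 11 (0.0663 to 0.0850). *Ptgdr2* had 30, 6 and 45 counts with vehicle and 0 with RGS (edgeR adjusted p = 0.0132). Its vehicle mean was 4.43 times the limit, and the edgeR confidence interval of its log2 fold change ended at -2.95. Its call was lost without vehicle replicate 9 (0.0969) or RGS replicate 10 (0.0516).

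The neighboring lipoxygenase branch was sparse. Of 18 genes, 4 were tested, 2 rose and 1 fell (median log2 fold change 0.69). *Alox5* and its activating protein gene *Alox5ap*, which start leukotriene synthesis, had 0 to 6 and 2 to 16 counts with vehicle and 0 with RGS. *Lta4h* rose from 114 ± 21.1 to 162 ± 21.6 CPM (log2 fold change 0.50, edgeR adjusted p = 0.0313), and the call was lost without vehicle replicate 9, RGS replicate 11 or RGS replicate 12 (adjusted p between 0.125 and 0.153). *Mgst2*, for a glutathione transferase that can make leukotriene C4, rose by 0.87 on the log2 scale (edgeR adjusted p = 0.0481), but RGS replicate 12 at 26.5 CPM stood far above the other RGS tumors at 11.4 and 11.7 CPM. Without that tumor the log2 fold change was 0.33 (adjusted p = 0.455), and the call was also lost without any vehicle tumor (0.0545 to 0.0914). *Ltc4s* had 27, 46 and 57 counts with vehicle and 0, 1 and 0 with RGS and is likewise named with its values in view. Its vehicle mean was 7.17 times the limit, and the edgeR confidence interval of its log2 fold change ended at -2.64. The edgeR adjusted p was 0.00692, and 0.0504 without vehicle replicate 9.

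Downstream of the E prostanoid receptors, 25 genes of signal transduction were listed, 21 were tested, 6 rose and 2 fell (median log2 fold change 0.17). *Arrb1*, for beta-arrestin 1, which desensitizes G-protein coupled receptors, rose from 6.01 ± 3.00 to 38.1 ± 4.38 CPM (log2 fold change 2.65, edgeR adjusted p = 2.07e-06). *Adcy7*, for an adenylyl cyclase, rose from 8.86 ± 1.29 to 27.4 ± 9.49 CPM (log2 fold change 1.63, edgeR adjusted p = 2.09e-04), and *Gna11*, for a G protein that releases calcium, rose from 124 ± 18.5 to 232 ± 20.2 CPM (log2 fold change 0.90, edgeR adjusted p = 2.52e-04). *Gnai3*, for an inhibitory G protein, fell from 198 ± 6.21 to 101 ± 10.4 CPM (log2 fold change -0.97, edgeR adjusted p = 8.19e-05). *Gnai2*, for another inhibitory G protein, and *Gnas*, for the stimulatory one, are named with their values in view and went the other way. *Gnai2* rose from 482 ± 53.6 to 693 ± 78.7 CPM (log2 fold change 0.53, edgeR adjusted p = 0.0131) and *Gnas* from 72.8 ± 5.42 to 106 ± 19.8 CPM (log2 fold change 0.54, edgeR adjusted p = 0.0213). The *Gnai2* call was lost without vehicle replicate 8 (adjusted p = 0.0537) or RGS replicate 12 (0.0877), and that of *Gnas* without vehicle replicate 8 or 9 or RGS replicate 10 or 11 (0.0516 to 0.131). *Prkar2b*, for a regulatory subunit of protein kinase A, fell by 0.40 on the log2 scale (edgeR adjusted p = 0.0474), a call that was lost without vehicle replicate 8 or 9 or any RGS tumor (adjusted p between 0.050 and 0.200).

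All 18 genes of a list of cyclic AMP and CREB responses were tested, 5 rose and 0 fell (median log2 fold change 0.10). The growth factor gene *Areg*, for amphiregulin, was at 29.2, 32.4 and 39.6 CPM with vehicle and at 458, 433 and 486 CPM with RGS. It rose by 3.77 on the log2 scale (SE 0.17, edgeR adjusted p = 1.74e-11). *Crem*, for a cyclic AMP responsive modulator, rose from 10.3 ± 2.79 to 21.2 ± 4.72 CPM (edgeR adjusted p = 0.00774), and *Dusp1*, for a phosphatase of MAP kinases, rose from 148 ± 13.2 to 254 ± 26.5 CPM (edgeR adjusted p = 7.14e-04). *Fosb* and *Pde4b*, named after their values were seen, rose by 0.68 and 0.70 on the log2 scale (edgeR adjusted p = 0.0170 and 0.00940). The *Fosb* call was lost without vehicle replicate 8 or 9 or RGS replicate 12 (adjusted p between 0.0504 and 0.0766), and that of *Pde4b* without RGS replicate 10 (0.0680). The immediate early gene *Nr4a1* did not pass the test, with 90.6 ± 9.53 and 109 ± 12.9 CPM (edgeR adjusted p = 0.233).

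Inflammatory genes that cells often make along with *Ptgs2* formed a list of 16, of which 13 were tested, 6 rose and 1 fell (median log2 fold change 0.65). The largest rise among those named was that of *Csf2*, for the cytokine GM-CSF, from 1.83, 2.56 and 5.20 CPM in the vehicle tumors to 82.8, 80.4 and 110.4 CPM in the RGS tumors (log2 fold change 4.86, SE 0.31, edgeR adjusted p = 1.54e-09). *Il11* rose from 39.2 ± 5.67 to 91.4 ± 8.27 CPM (log2 fold change 1.22, edgeR adjusted p = 3.17e-05). The neutrophil chemokine genes *Cxcl1* and *Cxcl2* rose by 0.56 and 0.93 on the log2 scale (edgeR adjusted p = 0.0279 and 0.0328). Their calls were less firm: that of *Cxcl1* was lost without vehicle replicate 7 or 8 or RGS replicate 11 or 12 (adjusted p between 0.0648 and 0.163), and that of *Cxcl2* without vehicle replicate 7 or 8 or any RGS tumor (0.0547 to 0.111). *Il6* was at 3.92 ± 1.78 and 7.31 ± 2.0 CPM and did not pass the test (edgeR adjusted p = 0.125), and *Il1b* was at 0 in all tumors. *Ccl2*, a monocyte chemokine gene named after its values were seen, fell by 0.50 on the log2 scale with overlapping groups (edgeR adjusted p = 0.0389), and the call was lost without vehicle replicate 8 or 9 or RGS replicate 10 or 11 (adjusted p between 0.0944 and 0.182).

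Regulators of *Ptgs2* transcription and mRNA decay were the list with the most decreases. All 21 were tested, 3 rose and 11 fell (median log2 fold change -0.47), beside 16.3% and 16.5% of all tested genes. *Ptgs2* itself was not called. The transcription factor genes *Cebpb* and *Rela* rose from 262 ± 17.8 to 475 ± 54.5 CPM (log2 fold change 0.86, edgeR adjusted p = 2.42e-04) and from 75.1 ± 16.5 to 122 ± 14.5 CPM (log2 fold change 0.70, edgeR adjusted p = 0.00579), and *Elavl1*, for the mRNA-stabilizing protein HuR, rose from 79.7 ± 4.89 to 144 ± 7.92 CPM (log2 fold change 0.85, edgeR adjusted p = 2.92e-04). *Egr1*, for an immediate early transcription factor, was at 272, 257 and 258 CPM with vehicle and at 75.1, 58.3 and 71.7 CPM with RGS. It fell by 1.94 on the log2 scale (SE 0.16, edgeR adjusted p = 4.15e-08). *Tsc22d3*, for the glucocorticoid-induced leucine zipper protein GILZ, fell from 54.9 ± 7.46 to 15.2 ± 4.76 CPM (log2 fold change -1.85, edgeR adjusted p = 7.03e-06), and *Celf2*, for an RNA-binding protein that holds back *Ptgs2* translation, fell from 64.6 ± 10.9 to 20.5 ± 1.5 CPM (log2 fold change -1.65, edgeR adjusted p = 3.20e-06). The genes *Zfp36*, *Zfp36l1* and *Zfp36l2*, for proteins that speed the decay of mRNAs with AU-rich elements, were named after their values were seen and fell by 0.74, 0.54 and 1.07 on the log2 scale (edgeR adjusted p = 0.0114, 0.0344 and 4.39e-04). The call of *Zfp36* was lost without RGS replicate 10 (adjusted p = 0.0765), and that of *Zfp36l1* without vehicle replicate 7 or 8 or RGS replicate 10 or 12 (0.0587 to 0.147). The genes of this list that fell include some for proteins that raise *Ptgs2* transcription and some for proteins that lower its mRNA. Any bearing of these genes on the *Ptgs2* level was not tested.

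Hsp90 and its co-chaperones, the group to which the p23 protein of *Ptges3* belongs, were listed as 11 genes, of which 10 were tested, 3 rose and 0 fell (median log2 fold change 0.17). *Hsp90aa1* rose from 1530 ± 49.5 to 2110 ± 191 CPM (log2 fold change 0.46, edgeR adjusted p = 0.0187), *Cdc37* from 345 ± 18.8 to 480.4 ± 57.8 CPM (log2 fold change 0.48, edgeR adjusted p = 0.0203) and *Stub1* from 74.7 ± 2.69 to 114 ± 10.5 CPM (log2 fold change 0.61, edgeR adjusted p = 0.00566). Without vehicle replicate 8, RGS replicate 11 or RGS replicate 12 the call of *Hsp90aa1* was lost (adjusted p between 0.0529 and 0.0983), as was that of *Cdc37* without RGS replicate 11 (0.0677) or 12 (0.131). *Ptges3*, with 306 ± 37.4 and 296 ± 31.1 CPM, was not among the genes that passed.

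**Figure D4:**
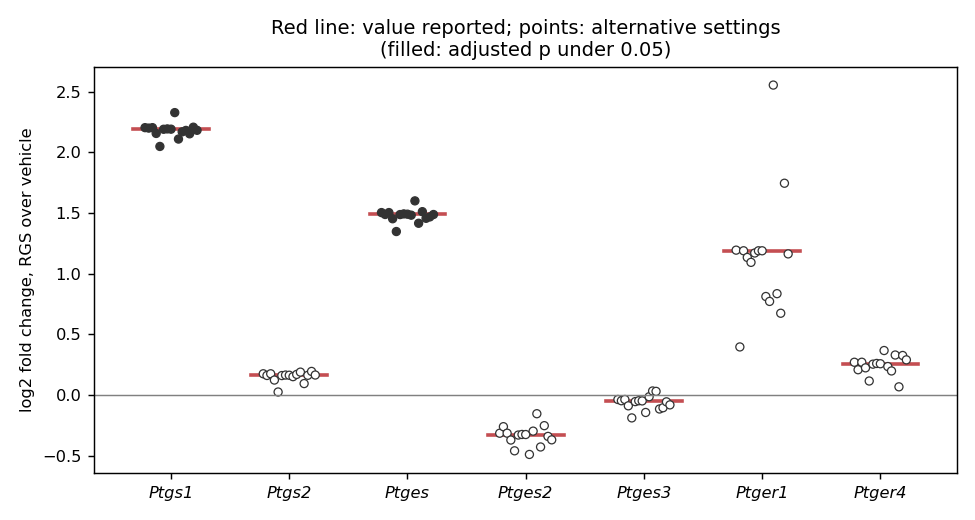
Log2 fold change of RGS over vehicle (vertical axis) for the 7 tested genes of the set. Red lines are the values reported, and each point is 1 alternative (another tool, scaling or filter, thinned counts, or 1 tumor left out), filled where the adjusted p is under 0.05. The points of Ptgs1 lie between 2.05 and 2.33 and those of Ptges between 1.35 and 1.6, all filled, whereas those of Ptger1 spread from 0.40 to 2.55 and are all open.

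The calls within the set did not depend on a single tumor. With each tumor left out in turn, the log2 fold change of *Ptgs1* lay between 2.11 and 2.33 and that of *Ptges* between 1.42 and 1.6, and both were called each time. The log2 fold change of *Ptgs2* lay between 0.02 and 0.19 over all 15 alternatives (adjusted p between 0.296 and 0.916), that of *Ptges2* between -0.49 and -0.15, that of *Ptger4* between 0.07 and 0.37, and that of *Ptges3* between -0.19 and 0.03.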

How the data were processed

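RNA-seq of 6 YUMM3.3 tumors was analysed, 3 with vehicle and 3 with RGS. The values deposited by the authors are raw read counts without normalization, with gene length, position and type. The submitters' processing notes name cutadapt 1.18, FastQC 0.11.7, STAR 2.7.1a, featureCounts 1.6.4 and mm10, with no roles. Reads were paired, of 150 bases. How strand and reads matching more than 1 gene were handled is not given in the sources used here. All per-sample columns matched a sample name. Positions equal those of GENCODE M21 (GRCm38) for all 38971 shared identifiers, and 17378 genes had no count.

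From the counts, edgeR 4.0.16 (R 4.3.3) kept genes with a median of at least 5 in at least 1 group, scaled by TMM (factors 0.920 to 1.08) and applied the quasi-likelihood F test with group as the only term and Benjamini-Hochberg adjustment. Standard errors were derived from the log2 fold change and its F statistic. Alternatives were DESeq2 1.42.0, limma 3.58.1 voom, other scalings, filters and thresholds, each tumor left out, and 3 added after the data had been seen: thinning, *Ptges3* with its copy, and shares without length scaling. The same test was run on simulated counts of 15355 genes, of which 200 were changed. At adjusted p under 0.05 it called 38% of the 2-fold and 76% of the 4-fold changes, and 7.32% of its calls were false. The simulation changed far fewer genes than the 5036 called in the data, and it pooled genes of all levels. Its rates therefore do not carry over to single genes here. A gene that did not pass may still have changed, and its confidence interval gives the range.

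The members, the lists and the markers were chosen with earlier results of these data known. Named genes were all members and, from each list, called genes with groups that do not overlap and a mean of at least 1 CPM, at most 3 in each direction by absolute log2 fold change, plus *Pla2g4a*, *Ptgds*, *Hpgds*, *Ptgis*, *Tbxas1*, *Ptgfr*, *Ptgir*, *Ptgdr*, *Slco2a1*, *Abcc4*, *Ptgr1*, *Alox5*, *Alox5ap*, *Il1b*, *Il6*, *Cxcl1*, *Nr4a1* and *Areg* whatever their values. Mast cell markers (0 to 0.237 CPM in sum), neutrophil markers (0.114 to 0.673), T cell markers (0 to 1.42) and skeletal muscle markers (1.36 to 4.42) were near 0 in all tumors. Libraries of 1 group differed beyond sampling noise (chi-square per degree of freedom at least 19.6), so none was counted as a repeat run of another library. This check cannot tell tumors of separate mice from pieces of 1 tumor.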

Additional observations from a re-analysis of the deposited data

How the results depend on the processing

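All settings that changed the tool (DESeq2, limma voom), the scaling, the filter, the dispersion fit, the depth or the number of tumors called 2 of the 10 prostaglandin genes, both higher, as did adjusted p under 0.01 and a log2 fold change of 1 or more in size. Over all genes, 5036 were called (2503 higher, 2533 lower). Adjusted p under 0.01 gave 3169 calls (1607 higher, 1562 lower) and the minimum of 1 on the log2 scale gave 2618 (1168 higher, 1450 lower), both stricter by construction. For the pathway lists, 52 calls (32 higher, 20 lower) became 30 (19 higher, 11 lower) and 25 (15 higher, 10 lower) under those 2 settings. With library size only, the median log2 fold change of all genes shifted from -0.05 to -0.19, and the calls became 1870 higher and 3152 lower over all genes and 23 higher and 24 lower in the lists. With 1 tumor left out, 3493 to 5249 genes were called, and 37 to 47 in the lists. The difference in the *Ptgs1* share was 18.4 percentage points, 17.9 to 19.1 with 1 tumor left out, and 16.5 from counts without scaling by gene length, a setting added after the data had been seen.

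Over 58 named genes, 864 alternative fold changes were computed. Of these, 781 stayed on the same side of the threshold and 83 lost a call, with 0 reversals of a called gene. Among the called genes 29 kept their call everywhere and 19 lost it at least once. Besides tumors left out, library size only ended the calls of *Lta4h*, *Mgst2*, *Cxcl1*, *Cxcl2*, *Hsp90aa1*, *Cdc37*, *Fosb*, *Gnas* and *Gnai2* (adjusted p between 0.0615 and 0.137), limma voom those of *Hpgds*, *Mgst2* and *Pla2g4b* (0.0613 to 0.108), upper-quartile factors that of *Mgst2* (0.0621), RLE factors that of *Prkar2b* (0.0538), no filter those of *Prkar2b* and *Pla2g4b* (0.0732 and 0.102), thinning those of *Mgst2* and *Pla2g4b* (0.0609 and 0.0629), and DESeq2 and the robust fit that of *Pla2g4b* (0.0819 and 0.0505). *Ptges3* and *Ptgds*, neither of them called, changed sign under some settings. No paired analysis was possible because the groups share no replicate number. Depth limits *Ptger1*, *Ptger2* and *Ptger3*, for which changes within a few counts could not be detected.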

Other observations

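Other transcripts near these genes were measured as well. *Pla2g4a*, at 149829618 to 149961290, and *Ptgs2*, at 150100031 to 150108227, are neighbors on chromosome 1, and the first fell with RGS (log2 fold change -0.83) while the second was not called (0.16). Between them lies *Ptgs2os*, an antisense neighbor of *Ptgs2*, which had 161, 91 and 156 counts with vehicle and 162, 114 and 84 with RGS and did not pass the test (edgeR adjusted p = 0.326). *Ptgs2os2*, on the other side of *Ptgs2*, had 7, 85 and 53 counts with vehicle and 71, 76 and 30 with RGS (edgeR adjusted p = 0.360). *Ptges3l*, a gene related to *Ptges3*, had 75, 91 and 91 counts with vehicle and 34, 9 and 35 with RGS (edgeR adjusted p = 0.264).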
